A study of Mus musculus with 10 samples.

Results

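A set of 9 liver genes of steroid hormone action were followed in livers of Etnppl knockout mice: 8 that encode steroid-converting enzymes (Cyp17a1, Hsd3b2, Hsd3b3, Hsd3b5, Hsd11b1, Hsd17b2, Hsd17b6 and Srd5a1) and Esr1, which encodes estrogen receptor alpha. They were taken by gene symbol from a deposited table of 47702 genes, and all 9 were found there. Female mice with a whole-body knockout (KO) of Etnppl were set against wild-type (WT) females. Both genotypes ate chow for 20 weeks, and the livers were frozen and sequenced as poly-A RNA. Each genotype had 5 libraries, named KO 1 to KO 5 and WT 1 to WT 5. The labels gave no strain or age. Values are FPKM, fragment counts scaled to transcript length and library size, so levels of different genes are compared per length. A gene was called when its limma adjusted p was under 0.05, with Benjamini-Hochberg adjustment over 12247 genes, those that averaged 0.5 FPKM or more.

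The liver makes little steroid from cholesterol, but it decides how much active hormone reaches and stays in its cells. 3-beta-hydroxysteroid dehydrogenases, 17-beta-hydroxysteroid dehydrogenases and 5-alpha-reductases activate or inactivate androgens and estrogens. Hsd11b1 regenerates corticosterone, the active glucocorticoid of the mouse, from its inert keto form, and Cyp17a1 carries the hydroxylase and lyase steps that lead to androgens. In rodents several of these genes differ between male and female liver, under the sex-specific pattern of growth hormone release.

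Of the 9 genes, Cyp17a1 and Hsd11b1 fell in KO livers, to 56% and 72.2% of the WT mean. Esr1, Hsd17b6, Hsd3b2, Hsd3b3, Hsd17b2 and Srd5a1 did not pass the test, and Hsd3b5 was too low to be tested. The call on 2 of 8 tested genes is read against 8.54% of all tested genes called in either direction and 4.56% called lower. The members were chosen with earlier results of these data known, so this count is a description and no test of the set. At an unadjusted limma p under 0.05 there were 3 of 8, against 24.5% of all tested genes. All 8 tested genes had a negative log2 difference, with a median of -0.33 against -0.02 over all tested genes. These 8 passed the filter on their own levels, so that median describes them and not all 9.

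The knockout lowered its target. Etnppl averaged 22.1 ± 3.92 FPKM in KO livers and 65.8 ± 26 FPKM in WT livers (SD, n = 5 each), which is -1.49 on the log2 scale (SE 0.23; adjusted p = 0.00504, limma). The hepatocyte markers Alb, Apoa1, Ttr, Tat, Serpina1a, Cps1 and Hnf4a were present in every library, with a summed level of 62572.27 to 67854.18 FPKM in KO and 57149.92 to 62744.56 FPKM in WT, and 1 of these 7, Cps1 of the urea cycle, rose (log2 difference 0.58). Relative depth, read from 83 low genes whose values sit on the step of 1 fragment, ranged from 0.911 to 1.092, with a mean of 0.961 in KO and 1.04 in WT (exact permutation test, two-sided, p = 0.0556, n = 5 each).

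The libraries WT 4 and WT 5 held transcripts of the adrenal cortex, a steroid-making tissue. Cyp11a1, the side-chain cleavage enzyme, was at 0.58 FPKM in WT 4 and 1.36 FPKM in WT 5 and was listed at 0 in the other 8 libraries. Cyp11b1, the 11-beta-hydroxylase of the adrenal cortex, was at 0.95 and 1.87 FPKM in these libraries and was also listed at 0 in the others. Cyp21a1, the 21-hydroxylase, was at 2.1 and 4.48 FPKM in WT 4 and WT 5, against at most 0.1 FPKM elsewhere. Nr5a1, the factor that sets up steroid-making cells, was at 0.13 and 0.11 FPKM there and listed at 0 elsewhere. The summed level of the 12 markers of adrenal cortex and ovary was 0.4 to 0.89 FPKM in KO and 0.59 to 0.83 FPKM in WT 1 to WT 3, against 5.44 FPKM in WT 4 and 10.13 FPKM in WT 5. The ovary markers Foxl2, Fshr and Lhcgr were listed at 0 in every library. Amh and Inha, of the same list, ranged from 0.06 to 0.34 FPKM and from 0 to 0.14 FPKM. Cyp11b2, of the adrenal cortex, was at 0.03 FPKM in WT 4 and 0 in WT 5, against 0.07 FPKM in KO 4. A set of 7 kidney markers summed to at most 0.19 FPKM. The values of the 8 tested members, of Hsd3b5 and of the list genes named by rule were also computed without WT 4 and WT 5, a choice made after seeing the data. WT 3 stood apart in another way. Its 13 female-biased liver genes summed to 1128.34 FPKM, against 2091.54 to 2682.35 FPKM in the other WT libraries and 909.64 to 1563.04 FPKM in KO.

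**Figure D1:**
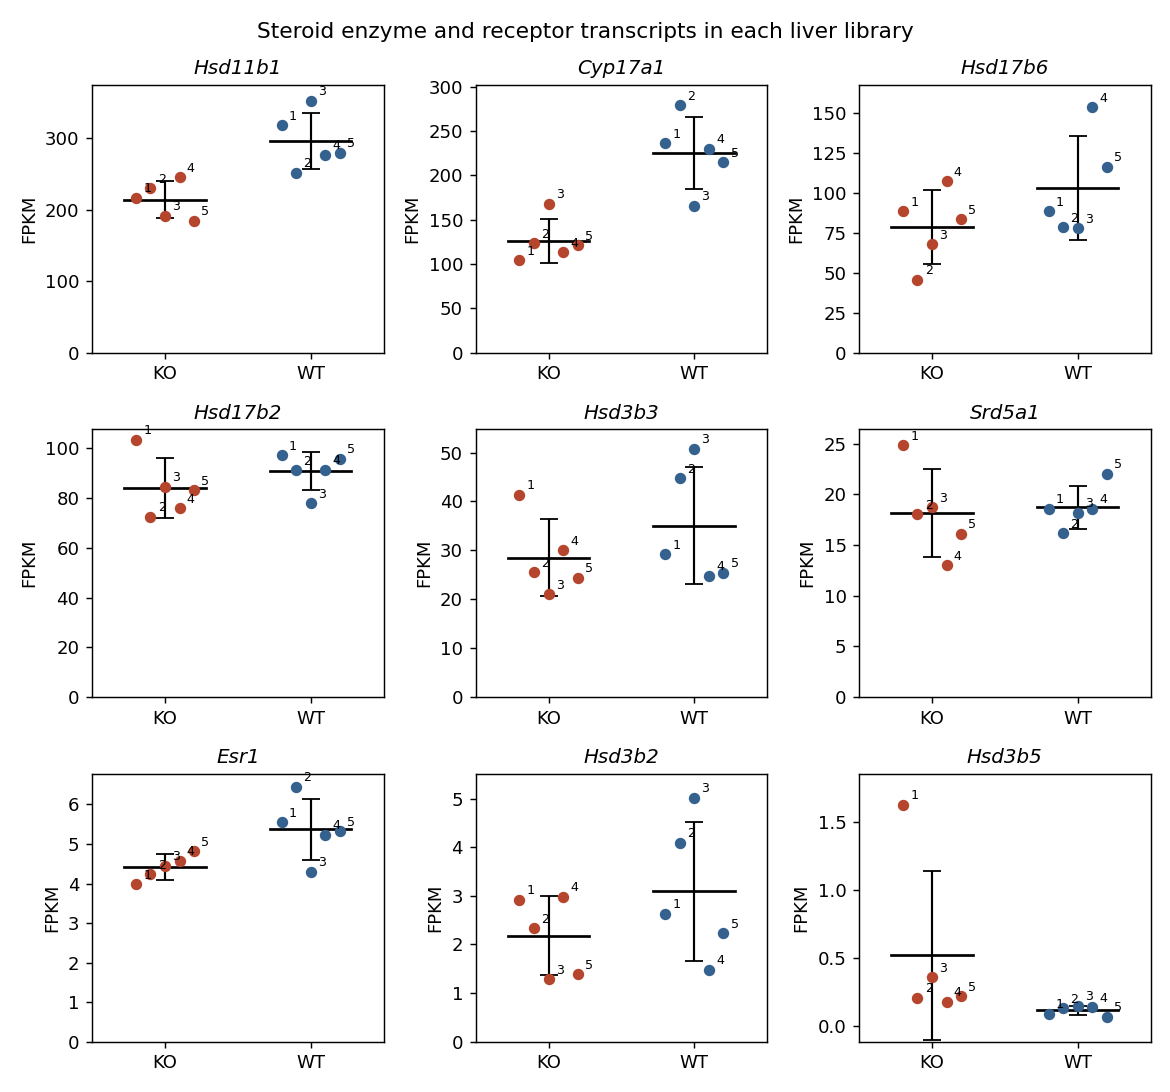
FPKM of the 9 genes in each library (points, numbered by replicate), with the mean (long bar) and SD (whiskers) of 5 KO and 5 WT livers. KO and WT do not overlap for Hsd11b1 and Hsd3b5, overlap by 1 library each for Cyp17a1 and are mixed for the others.

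The members spanned a wide range of levels. Hsd11b1 was the most abundant, with 213.668 ± 25.8 FPKM in KO and 295.792 ± 39.6 FPKM in WT (SD, n = 5 each), followed by Cyp17a1. Hsd11b1 was above Cyp17a1 in 5 of 5 KO and 4 of 5 WT libraries. Hsd17b6 and Hsd17b2 came next and could not be put in order, since Hsd17b6 was the higher in 2 KO and 3 WT libraries. Hsd3b3, Srd5a1, Esr1, Hsd3b2 and Hsd3b5 followed in that order in every library, except that Hsd3b2 exceeded Esr1 in WT 3. The plot of FPKM by library shows each of these levels.

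Cyp17a1 encodes the 17-alpha-hydroxylase and 17,20-lyase, and its transcript is higher in female than in male mouse liver. It lies on the minus strand of chromosome 19, at chr19:46667165-46673172 in mm10. KO 1 to KO 5 had 104.49, 123.36, 168.14, 113.52 and 121.09 FPKM, against 236.33, 278.89, 165.7, 229.83 and 214.77 FPKM in WT 1 to WT 5. All KO libraries but KO 3 were below every WT library, and the overlap came from KO 3 and WT 3, which differed by a small margin. The log2 difference was -0.83 (SE 0.15, 95% interval -1.16 to -0.51, adjusted p = 0.00748, limma). By an exact permutation test, two-sided, p was 0.0159. In bulk tissue, fewer cells of a type and less RNA per cell cannot be told apart. Without WT 3 the difference was -0.94, and it stayed called whichever library was left out, with adjusted p from 0.00304 to 0.0225. With the replicate number as a block in the fit, Cyp17a1 was not called (adjusted p = 0.0505, limma). Without WT 4 and WT 5 the difference was -0.83 (adjusted p = 0.0438, limma). Por, the reductase that gives electrons to Cyp17a1, had a log2 difference of 0.10 (adjusted p = 0.677, limma). For Cyb5a, a cytochrome b5 that partners P450 enzymes, it was -0.11 (adjusted p = 0.453, limma).

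Hsd11b1 is on the minus strand of chromosome 1, at chr1:193221634-193264075 in mm10. Levels in KO 1 to KO 5 were 216.6, 230.19, 191.51, 245.7 and 184.34 FPKM, against 318.33, 251.75, 352.46, 276.76 and 279.66 FPKM in WT 1 to WT 5. Every KO library was below every WT library, with KO 4 and WT 2 as the nearest pair; 1 of the 8 tested members and 4.78% of all tested genes had this pattern. The log2 difference was -0.47 (SE 0.10, 95% interval -0.69 to -0.24, adjusted p = 0.0188, limma). By an exact permutation test, two-sided, p was 0.0079, the lowest value possible with 5 and 5 libraries. Hsd11b1 stayed called whichever library was left out, with adjusted p up to 0.0474, and without WT 4 and WT 5 the difference was -0.52 (adjusted p = 0.0482, limma). With the replicate number as a block in the fit, Hsd11b1 was not called (adjusted p = 0.0607, limma).

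The lumenal reaction of Hsd11b1 runs toward active hormone on NADPH supplied by H6pd. H6pd averaged 109.1 ± 10.7 FPKM in KO and 107.7 ± 23 FPKM in WT (SD, n = 5 each), with a log2 difference of 0.04 (SE 0.13, adjusted p = 0.886, limma). Hsd11b2, the enzyme of the opposite reaction, was at no more than 0.02 FPKM in any library. Part of Lamb3 lies on the opposite strand of the Hsd11b1 locus and averaged 8.11 FPKM in KO and 6.75 FPKM in WT. The libraries were directional, but whether the counting used strand is not given in the sources used here, so shared reads cannot be told apart.

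The promoter window that RefSeq gives for Hsd11b1 is shown because Hsd11b1 fell in every KO library. It covers the 250 bases before the RefSeq start, which lies inside the longer GENCODE gene, chr1:193242361-193242610 on the minus strand of GRCm38.p6, and capitals mark a CCAAT box.
Hsd11b1: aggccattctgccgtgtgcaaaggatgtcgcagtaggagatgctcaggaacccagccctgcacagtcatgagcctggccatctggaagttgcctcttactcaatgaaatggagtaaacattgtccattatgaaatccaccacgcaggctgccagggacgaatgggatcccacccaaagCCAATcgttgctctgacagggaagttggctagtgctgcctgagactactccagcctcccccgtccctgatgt
The CCAAT box (CCAAT on either strand) is a common promoter element, found in 33.9% of all 32851 windows of this length. The estrogen response element (GGTCA, any 3 bases, then TGACC), the steroid receptor half-site AGAACA and the STAT5 site TTCNNNGAA, searched on both strands, were not in this window. They were in 0.0639%, 16.1% and 7.02% of all windows.

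The 3-beta-hydroxysteroid dehydrogenases Hsd3b2, Hsd3b3 and Hsd3b5 sit in 1 cluster on the minus strand of chromosome 3, between 98618634 and 98763127 in mm10, and about 31.9 Mb from Etnppl on the same chromosome. Hsd3b2 and Hsd3b3 oxidise 3-beta-hydroxy steroids in liver and kidney. Hsd3b5 reduces 3-keto steroids and is a male-specific transcript of mouse liver. The first 150 bases of their coding sequences, from the GENCODE M21 transcripts, show how close the copies are. Capitals mark bases that differ from Hsd3b3, 9 in Hsd3b2 and 38 in Hsd3b5.
Hsd3b2: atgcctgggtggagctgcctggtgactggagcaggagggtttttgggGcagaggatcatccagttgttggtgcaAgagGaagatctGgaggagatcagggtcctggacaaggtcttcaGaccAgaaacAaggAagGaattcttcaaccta
Hsd3b3: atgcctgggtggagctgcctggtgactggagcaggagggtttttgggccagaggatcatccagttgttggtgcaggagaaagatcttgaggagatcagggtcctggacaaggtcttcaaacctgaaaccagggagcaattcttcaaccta
Hsd3b5: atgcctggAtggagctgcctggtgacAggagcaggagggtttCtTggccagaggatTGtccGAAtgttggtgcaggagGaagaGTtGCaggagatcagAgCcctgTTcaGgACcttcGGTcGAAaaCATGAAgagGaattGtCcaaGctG
Over the whole coding sequence of 1122 bases, Hsd3b2 and Hsd3b3 were 95.1% identical and shared 33.6% of their windows of 50 bases. Hsd3b5 was 80.3% identical to Hsd3b2 and 79.9% to Hsd3b3 and shared none of those windows with them, while it shared 25.4% with Hsd3b4. The split of reads between Hsd3b2 and Hsd3b3 is therefore uncertain, and that between Hsd3b5 and Hsd3b4 too, although Hsd3b4 was at no more than 0.03 FPKM in any library.

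Hsd3b3 made up most of the cluster in these females. It was at 41.4, 25.57, 21.04, 29.99 and 24.4 FPKM in KO 1 to KO 5, against 29.25, 44.77, 50.79, 24.84 and 25.45 FPKM in WT 1 to WT 5. The groups overlapped, with KO 1, WT 2 and WT 3 high. The log2 difference was -0.27 (SE 0.24, 95% interval -0.79 to 0.26, adjusted p = 0.532, limma). Hsd3b2 had 2.92, 2.33, 1.28, 2.98 and 1.39 FPKM in KO 1 to KO 5 and 2.63, 4.09, 5.02, 1.48 and 2.23 FPKM in WT 1 to WT 5. Its log2 difference was -0.38 (SE 0.29, 95% interval -1.03 to 0.26, adjusted p = 0.463, limma). WT 4 and WT 5 were the lowest WT libraries for both genes, and without them the differences were -0.54 for Hsd3b3 and -0.74 for Hsd3b2 (adjusted p = 0.239 and 0.163, limma). Without WT 3 alone, the highest WT library for both, they were -0.12 for Hsd3b3 and -0.20 for Hsd3b2 (adjusted p = 0.78 and 0.695, limma).

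Hsd3b2 and Hsd3b3 varied together. After each genotype mean was subtracted, their log2 levels had a Pearson correlation of 0.906 over the 10 libraries, a description of libraries in which the same reads can count toward either gene. The ratio of Hsd3b3 to Hsd3b2 lay between 10.1 and 17.6 in KO and between 10.1 and 16.8 in WT. The sum over Hsd3b1 to Hsd3b6, which depends less on how reads were split among them, averaged 31.2 ± 9.13 FPKM in KO and 39.6 ± 12.1 FPKM in WT (SD, n = 5 each). The sums ranged from 22.68 to 46.05 FPKM in KO and from 29.07 to 55.99 FPKM in WT, and they overlapped. Hsd3b3 was 89.9% to 93.8% of the sum in KO. In WT it was 79.9% to 91.4%, lowest in WT 5 and WT 4, where Hsd3b1, the isoform of mouse adrenal and gonad, was at 4.11 and 2.58 FPKM. Hsd3b1 was at no more than 0.14 FPKM in any other library. Hsd3b6 was listed at 0 in all 10.

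**Figure D2:**
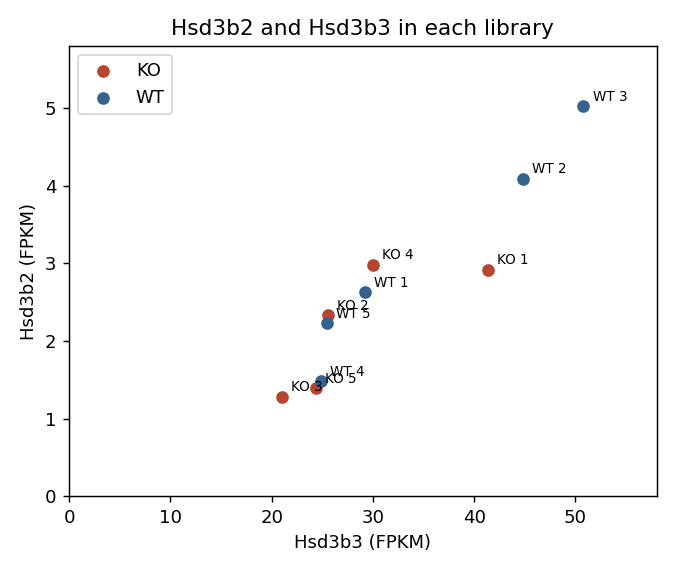
Hsd3b2 against Hsd3b3, both in FPKM, in each of 5 KO and 5 WT libraries. WT 2 and WT 3 lie highest for both genes, KO 1 has Hsd3b3 of 41.4 FPKM with Hsd3b2 of 2.92 FPKM, and the genotypes are mixed at the low end.

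The upstream windows of Hsd3b2 and Hsd3b3 are shown because these 2 genes moved together between libraries. They hold the 250 bases before the RefSeq start at chr3:98724544-98724793 and chr3:98763129-98763378 on the minus strand of GRCm38.p6, and capitals mark the steroid receptor half-site in Hsd3b2 and the CCAAT box, read as ATTGG on this strand, in Hsd3b3.
Hsd3b2: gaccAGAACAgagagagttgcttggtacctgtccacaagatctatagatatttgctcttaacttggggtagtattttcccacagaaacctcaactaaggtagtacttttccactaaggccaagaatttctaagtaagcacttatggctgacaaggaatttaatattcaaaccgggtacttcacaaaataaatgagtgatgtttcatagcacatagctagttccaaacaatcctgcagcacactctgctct
Hsd3b3: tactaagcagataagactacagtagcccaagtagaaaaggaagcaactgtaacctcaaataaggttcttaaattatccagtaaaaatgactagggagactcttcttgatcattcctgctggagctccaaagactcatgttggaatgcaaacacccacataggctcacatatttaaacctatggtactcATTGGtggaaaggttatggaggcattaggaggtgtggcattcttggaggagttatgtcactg
The windows shown were 44.9% identical in a global alignment, far less alike than the coding sequences. Another RefSeq window of Hsd3b3, not shown, was 43% identical to that of Hsd3b2. The identity of unrelated windows was not computed. Neither window shown held the estrogen response element or the STAT5 site.

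Hsd3b5 was near the lower limit of the data and yet separated the genotypes. The libraries KO 1 to KO 5 had 1.63, 0.21, 0.36, 0.18 and 0.22 FPKM, against 0.09, 0.13, 0.15, 0.14 and 0.07 FPKM in WT 1 to WT 5. Every KO library was above every WT library, a pattern found in 4.08% of the genes tested, with KO 4 and WT 3 as the nearest pair. The KO mean of 0.52 ± 0.62 FPKM, against 0.116 ± 0.034 FPKM in WT (SD, n = 5 each), was 4.48 times the WT mean and rested on KO 1. Without KO 1 the KO mean was 0.243 FPKM, or 2.09 times the WT mean. The mean over all 10 libraries, 0.318 FPKM, was under the filter. On the log2(FPKM + 0.5) scale, which understates the change of a gene this low, the difference was 0.57, against 0.27 without KO 1 and 0.55 without WT 4 and WT 5. An exact permutation over libraries, two-sided, reached p = 0.0079, its lowest possible value. With no filter on low values, limma did not call it (adjusted p = 0.344). Zfp697, which overlaps the cluster on the opposite strand, averaged 0.486 FPKM in KO and 0.522 FPKM in WT. These levels are near the Hsd3b5 mean in KO, which rested on KO 1, and above its mean in WT. Shared reads cannot be told apart.

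The members Hsd17b2, Hsd17b6 and Srd5a1, enzymes of androgen and estrogen conversion, showed no called difference. Hsd17b2 oxidises estradiol to estrone and testosterone to androstenedione, and lies at chr8:117701904-117759027 in mm10. It had 103.37, 72.48, 84.55, 75.81 and 83.01 FPKM in KO 1 to KO 5, against 97.17, 91.06, 77.85, 91.29 and 95.72 FPKM in WT 1 to WT 5. The groups overlapped, with the highest value in KO 1, and the log2 difference was -0.12 (SE 0.09, 95% interval -0.32 to 0.09, adjusted p = 0.48, limma). It was -0.20 without KO 1, -0.07 without KO 2 and -0.09 without WT 4 and WT 5.

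Hsd17b6, an oxidative hydroxysteroid dehydrogenase that acts on androstanediol, lies at chr10:127990936-128007611 in mm10. KO 1 to KO 5 had 88.63, 45.75, 68.04, 107.43 and 83.68 FPKM, against 88.49, 78.69, 77.97, 153.54 and 116.5 FPKM in WT 1 to WT 5. It spread widely in both genotypes, with a coefficient of variation of 29.4% in KO and 31.3% in WT, and the highest values were in WT 4 and WT 5, the libraries with adrenal transcripts. The log2 difference was -0.39 (SE 0.25, 95% interval -0.94 to 0.16, adjusted p = 0.37, limma), and -0.11 without WT 4 and WT 5. It was -0.21 without KO 2 alone, the lowest KO library, and -0.24 without WT 4 alone. The part of the adrenal transcripts in this difference was not tested.

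**Figure D3:**
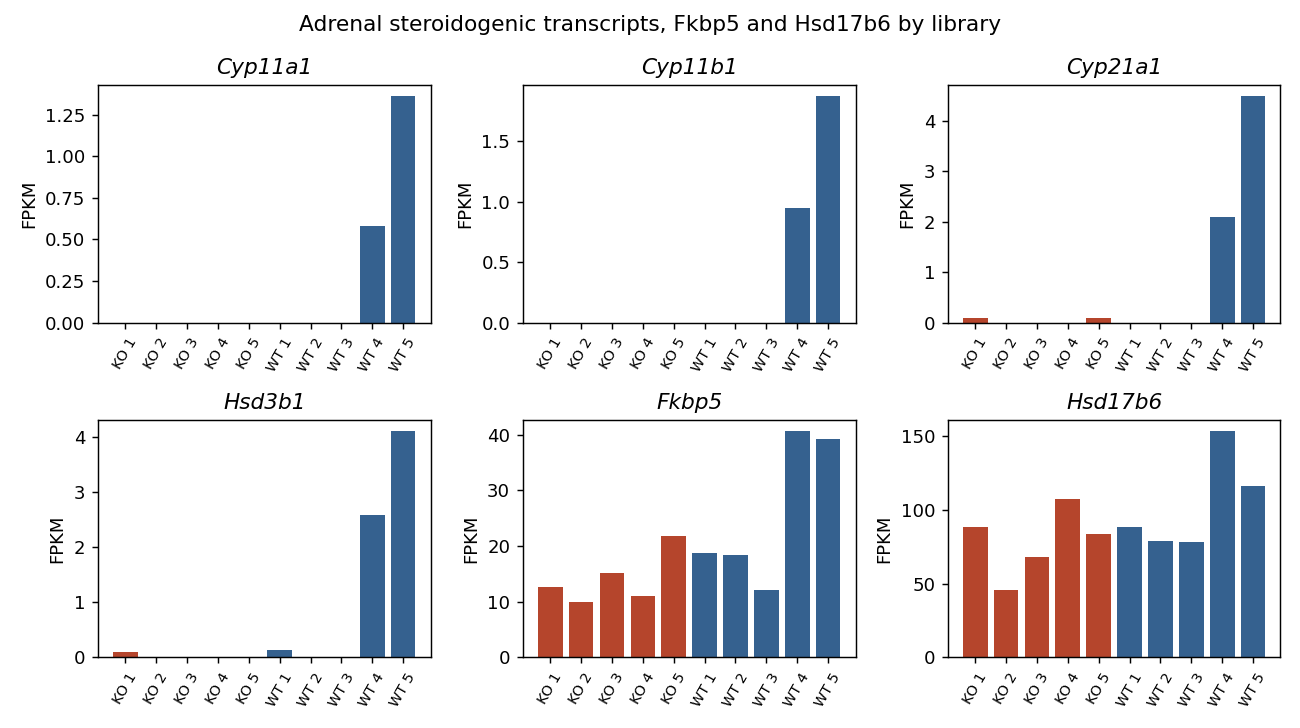
FPKM by library (bars, 5 KO then 5 WT livers) of Cyp11a1, Cyp11b1, Cyp21a1 and Hsd3b1, which the adrenal cortex uses to make steroids, of the glucocorticoid target Fkbp5, and of Hsd17b6. WT 4 and WT 5 are highest in all 6 panels. Fkbp5 was picked after its values were seen, and some other glucocorticoid targets were lower in WT 4 and WT 5 than in WT 1 to WT 3.

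Srd5a1, the 5-alpha-reductase that turns testosterone into dihydrotestosterone, lies at chr13:69573449-69611442 in mm10. KO 1 to KO 5 had 24.88, 18.07, 18.75, 13.03 and 16.15 FPKM, against 18.61, 16.17, 18.22, 18.61 and 22.06 FPKM in WT 1 to WT 5. KO libraries held both the highest and the lowest value, and the log2 difference was -0.07 (SE 0.14, 95% interval -0.38 to 0.25, adjusted p = 0.822, limma). Its sign turned, to 0.042 without KO 4 and to 0.012 without WT 4 and WT 5. Part of Nsun2 lies on the opposite strand of this locus, with 36.2 FPKM in KO and 34.4 FPKM in WT, and shared reads cannot be told apart. Srd5a2, the other androgen-forming reductase, was at 0.16 to 0.33 FPKM in KO and 0.32 to 0.66 FPKM in WT, below the filter.

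Esr1 carries the estrogen signal of hepatocytes and is at chr10:4611593-5005614 on the plus strand in mm10. KO 1 to KO 5 had 3.98, 4.24, 4.45, 4.58 and 4.82 FPKM, against 5.55, 6.45, 4.3, 5.23 and 5.32 FPKM in WT 1 to WT 5. All WT libraries but WT 3 were above every KO library, and WT 3 lay among the KO libraries. The log2 difference of -0.25 (SE 0.10, 95% interval -0.46 to -0.04) did not pass the adjustment over all genes (adjusted p = 0.138, limma). Without WT 3 it was -0.32 (adjusted p = 0.0456), and in the other settings the adjusted p was 0.0975 to 0.265. Esr2, which encodes the other estrogen receptor, was at no more than 0.03 FPKM in any library.

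**Figure D4:**
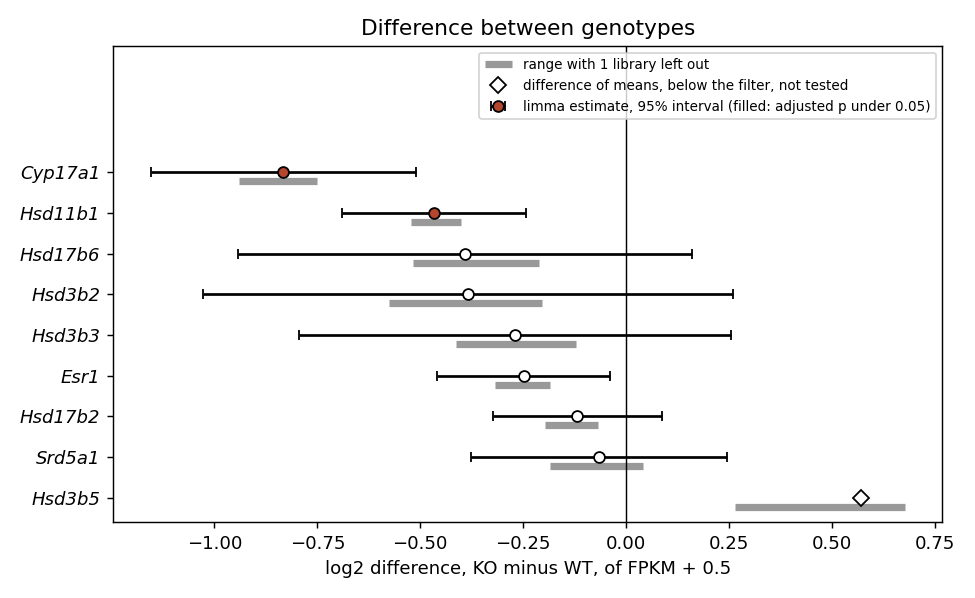
Log2 difference (KO minus WT, of FPKM + 0.5) of each gene with its 95% interval from limma (circles, filled where called) and the range with 1 library left out (grey bars); Hsd3b5 (diamond) was below the filter. The intervals of Cyp17a1, Hsd11b1 and Esr1 lie below 0, and those of the other 5 tested genes span 0.

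A further 6 lists hold the other genes of steroid metabolism and signalling, with 83 genes in all, of which 64 were tested. In these lists 3 genes rose, 3 fell and 58 did not pass, so that 6 of 64 were called, near the 8.54% of all tested genes (3.98% higher and 4.56% lower). Their median log2 difference was -0.02. Without WT 4 and WT 5 the genes that rose numbered 1, and so they did without KO 4 or without WT 5 alone, while those that fell numbered 3 without both libraries and 7 without WT 3.

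Among 15 tested dehydrogenases and reductases, 3 fell, 1 rose and 11 did not pass. Akr1c20, an aldo-keto reductase, had 25.41, 23.12, 19.52, 24.12 and 21.29 FPKM in KO 1 to KO 5, against 41.74, 37.42, 41.01, 44.18 and 42.63 FPKM in WT 1 to WT 5. Every KO library was far below every WT library, and the log2 difference was -0.86 (SE 0.07, adjusted p = 0.000242, limma). Akr1c6, the mouse aldo-keto reductase that acts as a 17-beta-hydroxysteroid dehydrogenase, averaged 141.3 ± 18 FPKM in KO and 235.9 ± 30.2 FPKM in WT (SD, n = 5 each), with a log2 difference of -0.74 (adjusted p = 0.00298, limma). Hsd17b8, listed in the table as H2-Ke6, averaged 48.3 ± 2.68 FPKM in KO and 61 ± 1.75 FPKM in WT (SD, n = 5 each; log2 difference -0.34, adjusted p = 0.00338, limma). Hsd17b13, a lipid droplet enzyme of hepatocytes, rose to 474.4 ± 23.4 FPKM in KO, against 358.4 ± 35.6 FPKM in WT (SD, n = 5 each; log2 difference 0.41, adjusted p = 0.00573, limma). These 4 calls held whichever single library was left out, and without WT 4 and WT 5 (adjusted p of 0.00387 for Akr1c20, 0.02 for Akr1c6, 0.0212 for Hsd17b8 and 0.0364 for Hsd17b13, limma).

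None of the 8 tested genes of steroidogenic entry and P450 partners was called by limma. An unadjusted limma p under 0.05 was found for 2 of them, against 24.5% of all tested genes. Star, which carries cholesterol into mitochondria, had the smallest p, with 0.322 ± 0.136 FPKM in KO and 0.904 ± 0.611 FPKM in WT (SD, n = 5 each; adjusted p = 0.12, limma). Its WT mean held 1.31 FPKM in WT 4 and 1.78 FPKM in WT 5, against 0.41 to 0.56 FPKM in WT 1 to WT 3. Its log2 difference was -0.69, and -0.26 without WT 4 and WT 5 (adjusted p = 0.4, limma).

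Of 13 tested conjugation genes, 2 rose and 11 did not pass. Sult1e1, the sulfotransferase that inactivates estrogens, had 31.44, 30.78, 82.03, 62 and 55.71 FPKM in KO 1 to KO 5, against 11.58, 30.5, 16.34, 5.85 and 6.89 FPKM in WT 1 to WT 5. WT 4 and WT 5 were the lowest of all libraries, and WT 2 lay just under KO 2. The log2 difference was 1.99 (SE 0.44, adjusted p = 0.0253, limma), and 1.41 without WT 4 and WT 5 (adjusted p = 0.0999, limma); leaving out WT 1, WT 5, KO 4 or KO 5 alone also ended the call (adjusted p up to 0.0603). Sult1a1, a phenol sulfotransferase, rose by 0.28 on the log2 scale (adjusted p = 0.0431, limma), a call that was lost without any of 7 libraries (KO 1 to KO 4, WT 1, WT 4 and WT 5; adjusted p up to 0.0914). Without both WT 4 and WT 5 the difference was 0.19 (adjusted p = 0.146, limma).

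None of 13 other receptor and co-regulator genes was called by limma, with 4 at an unadjusted p under 0.05, against 24.5% of all tested genes. Nr3c2, the mineralocorticoid receptor, came nearest, with 2.56 ± 0.381 FPKM in KO and 1.73 ± 0.385 FPKM in WT (SD, n = 5 each; log2 difference 0.47, adjusted p = 0.0531, limma). It passed after median-of-ratios scaling, upper-quartile scaling and quantile normalization (adjusted p = 0.0446, 0.0495 and 0.0416), and without KO 1 or WT 1 (0.0415 and 0.0386). In the other settings it did not, and without WT 4 and WT 5 the difference was 0.30 (adjusted p = 0.217, limma). None of 14 glucocorticoid targets was called by limma, with 3 at an unadjusted p under 0.05, against the same 24.5%. Their median log2 difference was -0.01. Dusp1, a phosphatase of that list, averaged 20 ± 2.59 FPKM in KO and 30.4 ± 9.78 FPKM in WT (SD, n = 5 each; log2 difference -0.55, adjusted p = 0.0877, limma; 0.0312 without WT 2 and 0.171 without WT 4 and WT 5). Tsc22d3, a direct glucocorticoid target, averaged 64.8 ± 10.5 FPKM in KO and 64.8 ± 5.15 FPKM in WT (SD, n = 5 each), with a log2 difference of -0.01. Fkbp5, a glucocorticoid-induced chaperone named here after its values were seen, was at 9.93 to 21.76 FPKM in KO and 12.06 to 18.78 FPKM in WT 1 to WT 3, against 40.67 FPKM in WT 4 and 39.26 FPKM in WT 5. Of the same list, Cdkn1a and Angptl4 were also higher in WT 4 and WT 5 than in WT 1 to WT 3. Zbtb16, Tsc22d3, Sgk1, Mt2 and Lcn2 were lower there, and the remaining targets were mixed. The 2 tested plasma steroid carriers, Alb (log2 difference 0.09, adjusted p = 0.24, limma) and Serpina6 (-0.12, adjusted p = 0.783, limma), were not called by limma, and neither was under an unadjusted p of 0.05.

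**Figure D5:**
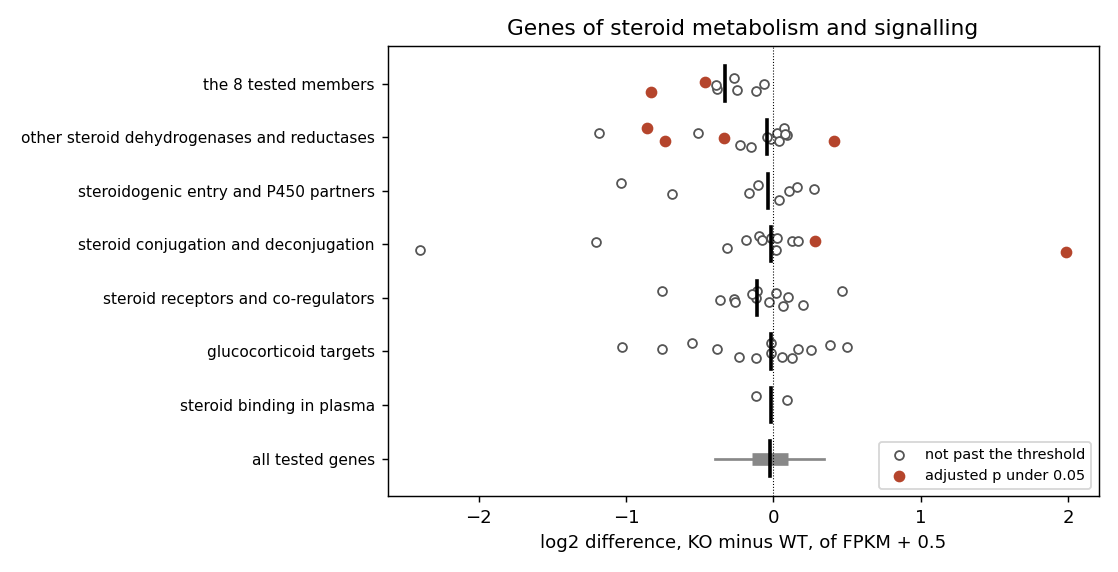
Log2 differences (KO minus WT, of FPKM + 0.5) of the 8 tested members and of the tested genes of 6 steroid lists, filled where the limma adjusted p was under 0.05, with list medians as vertical bars. The lowest row gives all tested genes as median, quartiles (thick bar) and 5th to 95th percentiles (thin line). Called genes stand on both sides of 0, and Sult1e1 is the farthest to the right at 1.99.

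Lists of sex-biased genes and of cell type markers are read against the same 3.98% higher and 4.56% lower over all tested genes. The lists were chosen with earlier results of these data known, so their counts are descriptions and no test of a list. Of 13 female-biased liver genes, 5 fell and 8 did not pass, with Cyp2a4 at 23.8 ± 9.14 FPKM in KO and 131 ± 44 FPKM in WT (SD, n = 5 each; log2 difference -2.45, adjusted p = 0.002, limma; 0.0212 without WT 4 and WT 5). Of the 4 called genes of this list with the smallest p, Cyp3a44 lost its call without any of 7 single libraries, and Cyp3a44 and Abcd2 lost it without both WT 4 and WT 5. For the remaining called gene, Cyp3a16 (adjusted p = 0.0342, limma), values in other settings are not given here. Of 12 male-biased genes, 5 rose and 7 did not pass, with Susd4 at 10.7 ± 1.04 FPKM in KO and 2.86 ± 1.45 FPKM in WT (SD, n = 5 each; log2 difference 1.83, adjusted p = 0.00121, limma; 0.00768 without WT 4 and WT 5). Cyp2d9 lost its call without KO 2, KO 5 or WT 5 and Mup21 without any of 7 single libraries, and both lost it without WT 4 and WT 5. Values in other settings are also not given for Cyp4a12a (adjusted p = 0.0405, limma), the called male-biased gene with the largest p. Cyp17a1 is higher in female and Hsd3b5 in male mouse liver. Of 7 Kupffer cell markers, 4 fell and 3 did not pass, and their sum was 115.72 to 164.04 FPKM in KO and 175.05 to 200.75 FPKM in WT. Csf1r lost its call without any of 6 single libraries, and Vsig4 without both WT 4 and WT 5. None of 6 endothelial markers was called by limma, with 2 at an unadjusted p under 0.05, against 24.5% of all tested genes. Of 6 stellate cell markers, Reln (log2 difference -0.26, adjusted p = 0.0466, limma) fell, and of 4 tested bile duct markers Sox9 fell (-0.56, adjusted p = 0.0349, limma), and both lost the call without most single libraries. The part of these groups in the differences of the steroid genes was not tested.

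Genes whose variation within genotypes was most like that of a member were sought among all tested genes, by Pearson correlation of log2 levels over 10 libraries after subtraction of each genotype mean. With so many genes and few libraries some correlations are high whatever the gene, so these are descriptions. Akr1d1, the hepatic 5-beta-reductase of steroids, was the third closest to Hsd3b2 (0.97), after Plekhg6 (0.979) and Thra (0.975). Acot8 was closest to Cyp17a1 (0.953), Rnf13 to Hsd11b1 (0.952) and Dapk3 to Esr1 (0.95). Among the members, Cyp17a1 and Esr1 had a correlation of 0.724, and Cyp17a1 and Hsd11b1 one of -0.686, although both of the last pair were lower in KO.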

How the data were processed

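Poly-A RNA of frozen liver from 5 KO and 5 WT samples gave paired-end libraries made with a directional second-strand kit, per the labels and design text. The authors deposited FPKM per gene and library. Per the submitters' processing notes, the tools included STAR, RSEM, R 4.0.2, DESeq and DESeq2, with mm10 as the build and no step assigned to any tool. No annotation or strand setting of the counting is named in the sources used here.

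Deposited values entered unchanged, on the log2(FPKM + 0.5) scale. Genes that averaged 0.5 FPKM or more over the 10 libraries entered a limma fit (version 3.58.1, R 4.3.3) on genotype alone, with a trended, robust eBayes step, two-sided tests and Benjamini-Hochberg adjustment over all of them, and the fit was tested on simulated data. Members and lists were chosen with earlier results of these data known. Of 168 entries in the members and lists together, 167 matched the table. Besides the members and Etnppl, the text names in each list up to 4 called genes by smallest p, or the 1 with the smallest p, as fixed in the design, and a few others for their role or values; some that this rule gives are not named. Since no label ties a sample to one animal, the p-values reflect only how these samples spread, which may be technical. No library totals are named in the sources used here. Relative depth was read from genes with at least 3 libraries at 0 whose other values, at least 0.2 FPKM, lay within a ratio of 1.15. Positions are from GENCODE M21 (GRCm38, the assembly of mm10). Promoters are from RefSeq on GRCm38.p6, which held windows for 7 of the 9 members. Alternatives were other pseudocounts, filters, scalings, variance options, weighted libraries, a block on the replicate number and each library left out; leaving out both WT 4 and WT 5 was added after the data were seen. Figures used matplotlib 3.10.9 in Python 3.11.15.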

Additional observations from a re-analysis of the deposited data

Results flagged for a closer look

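In 72 groups of 5 libraries, formed by the members, Etnppl and the list genes chosen by rule, 3 held a library far from the other 4, where chance alone gives about 1 in 20, or 3.6. Hsd3b5 was at 1.63 FPKM in KO 1, against 0.18 to 0.36 FPKM in the other KO libraries. The other 2 were in WT 3. Cyp3a44, a female-biased cytochrome P450, was at 35.16 FPKM there, against 119.93 to 147.37 FPKM in the other WT libraries. Susd4, a male-biased transcript, was at 5.38 FPKM in WT 3, against 1.7 to 2.7 FPKM.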

How the results depend on the processing

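In the fit of all genes, 488 rose and 558 fell in KO. The counts were 294 and 370 without the filter on low values, 230 and 321 with the replicate number as a block, 208 and 318 without both WT 4 and WT 5, and 259 to 456 and 317 to 544 with 1 library left out; the last 2 settings have fewer samples. With the replicate block, Cyp17a1 (-0.83, limma adjusted p = 0.0505) and Hsd11b1 (-0.47, limma adjusted p = 0.0607) lost their call. Deviations of same-numbered libraries had correlations from -0.207 to 0.208. Differently numbered libraries were not set beside them, so this check cannot tell whether the numbers pair the samples. No other call on a member changed with the block. With 1 library left out Srd5a1 ranged from -0.18 to 0.042, Esr1 from -0.32 to -0.19, Hsd3b2 from -0.57 to -0.20, Hsd3b3 from -0.41 to -0.12, Hsd17b2 from -0.20 to -0.07 and Hsd17b6 from -0.52 to -0.21, and without both WT 4 and WT 5 Srd5a1 was at 0.012; the cause was not tested. Hsd3b5 was at 1.13 with a pseudocount of 0.1 FPKM, which weighs low values more, against 0.57. The steroid list genes that rose numbered 1 without both WT 4 and WT 5 and 1 to 3 with 1 library left out, against 3; those that fell numbered 6 with library weights and 3 to 7 with 1 library left out, against 3. Of the values of the other list genes chosen by rule, 280 in other settings and 206 with 1 library left out kept their side of the threshold, 24 and 51 lost their call, 3 and 3 gained one, and none changed sign. Quantile normalization gave no value for Alb, the highest gene of every library. Depth and the 2 decimals of the values limit Hsd3b5 and the adrenal transcripts.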
